A study of Mus musculus with 10 samples.

Results

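The dystrophin glycoprotein complex was represented by 8 genes, Dmd, Utrn, Dag1, Sgca, Sgcb, Sgcd, Dtna and Lama2, of 43629 genes counted in mouse skeletal muscle. They were chosen as a named list of complex genes and found in the count data by matching Ensembl identifiers to symbols, and all 8 were found. The study asked what the RNA-binding protein IMP2 (gene Igf2bp2) does in adult muscle, and sequenced total RNA and RNA recovered by immunoprecipitation (IP) with a home-made antibody against IMP2. The mice of all groups were C57BL/6 males, 6 weeks old, kept for 2 weeks on a high-fat diet (HFD), so no group on another diet served as a control. Wild Type muscle (WT) gave 3 total RNA and 2 IP libraries. Muscle of the IMP2 knockout (KO) gave 3 total RNA and 2 IP libraries. The sample labels call the KO genotype IMP2 null and the series description calls it a muscle-specific knockout, with no promoter or Cre line named. In a muscle-specific knockout the other cells of the tissue keep the gene. The KO IP was taken as the measured background of the antibody in the WT IP. Reads of Igf2bp2 were found in the KO libraries too, and are given with the depths. No label says that libraries came from separate animals, and p-values therefore measure the spread between these libraries, part of which may be technical.

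The complex links the actin cytoskeleton of the muscle fibre to the basement membrane through the fibre's plasma membrane, the sarcolemma. Dystrophin (Dmd) and its autosomal relative utrophin (Utrn) bind actin on the inside, together with α-dystrobrevin (Dtna), which carries syntrophins. Dystroglycan (Dag1) is cut into an extracellular α subunit, whose sugars bind laminin, and a transmembrane β subunit that binds dystrophin. The sarcoglycans (among them Sgca, Sgcb and Sgcd) form a transmembrane subcomplex beside dystroglycan, and laminin α2 (Lama2) is the laminin chain of the muscle basement membrane. Loss of dystrophin, of a sarcoglycan or of laminin α2 leads to muscular dystrophy.

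Promoter sequences are shown for Dmd, Dag1 and Sgca, since Dag1 and Sgca had profiles across total RNA libraries unlike that of Dmd, as described further on. Each is the window of 250 bases before an annotated RefSeq start (GRCm38.p6), written 5′ to 3′ on the strand of the gene, with every CANNTG in capitals. CANNTG is the E-box, the pattern bound by MyoD and related muscle factors, and it reads as the same pattern on both strands. Of 32851 windows of the same length, 66.2% held at least 1 CANNTG, so its presence is common. The windows lie at chrX:82948620-82948869, plus strand (Dmd, start 1), chrX:85048045-85048294, plus strand (Dmd, start 2), chr9:108263959-108264208, minus strand (Dag1), and chr11:94976328-94976577, minus strand (Sgca).
Dmd, start 1: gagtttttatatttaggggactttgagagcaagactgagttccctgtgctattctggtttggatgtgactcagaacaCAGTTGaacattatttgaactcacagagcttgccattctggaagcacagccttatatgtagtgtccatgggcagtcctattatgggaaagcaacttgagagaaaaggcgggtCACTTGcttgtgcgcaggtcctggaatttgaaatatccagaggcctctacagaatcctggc
Dmd, start 2: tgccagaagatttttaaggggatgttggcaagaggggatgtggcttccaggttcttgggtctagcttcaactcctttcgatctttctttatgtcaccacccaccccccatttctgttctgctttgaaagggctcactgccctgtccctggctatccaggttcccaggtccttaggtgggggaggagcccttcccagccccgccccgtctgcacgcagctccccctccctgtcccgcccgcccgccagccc
Dag1: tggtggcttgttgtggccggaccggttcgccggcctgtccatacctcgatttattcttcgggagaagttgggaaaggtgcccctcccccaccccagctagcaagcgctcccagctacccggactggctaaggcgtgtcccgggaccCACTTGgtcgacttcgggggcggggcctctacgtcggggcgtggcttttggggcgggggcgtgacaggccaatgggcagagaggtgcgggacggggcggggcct
Sgca: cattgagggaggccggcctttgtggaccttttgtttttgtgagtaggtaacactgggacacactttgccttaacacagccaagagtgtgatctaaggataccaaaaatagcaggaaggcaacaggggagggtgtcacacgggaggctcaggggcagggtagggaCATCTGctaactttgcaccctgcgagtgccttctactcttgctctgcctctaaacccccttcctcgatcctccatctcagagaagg
The window at the first annotated Dmd start had 2 CANNTG, at a GC content of 45.2%. The window at start 2, which lies inside the gene and belongs to a shorter transcript, had 0 CANNTG at 60.0% GC. A count per gene adds up reads from both starts, so the Dmd values do not separate full-length from shorter dystrophin transcripts. The Dag1 and Sgca windows shown had 1 CANNTG each, at 67.6% and 52.8% GC, where the median window had 52.4%. Another annotated Dag1 start has a window with 1 CANNTG at 74.8% GC, which overlaps annotated exons and is not shown. Such a match is a description of letters and not a binding site.

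Total RNA libraries held 12299030 to 14809788 gene counts in WT and 9691580 to 10739792 in KO, and the WT IP libraries 2159115 and 2547124. The KO IP libraries were unequal, with 917462 counts in library 1 and 4037480 in library 2. Counts of Igf2bp2 were 35, 37 and 48 in the WT and 21, 19 and 21 in the KO total RNA libraries, and the log2 difference was -0.36 ± 0.28 (SE), with an adjusted p of 0.897 by edgeR's quasi-likelihood test. The IP libraries had 28 and 4 counts of Igf2bp2 in WT and 9 and 25 in KO. These counts cover the whole gene and do not show how much IMP2 the KO muscle kept. All 21 markers of muscle fibres were detected in every group, and their summed level was 157713 to 272780 CPM (counts relative to the total of a library, scaled with TMM factors) in WT total RNA and 285040 to 366163 CPM in KO total RNA, without overlap. All 12 fibroblast markers were also detected, at 4392 to 6686 CPM in WT and 4940 to 8170 CPM in KO total RNA, and at 6815 to 8341 CPM in the WT IP and 13061 to 13964 CPM in the KO IP. KO total library 1 held pancreatic islet transcripts at 2431 CPM, where no other total RNA library exceeded 2.23 CPM. In the IP libraries the islet markers summed to 44.5 to 374 CPM. The fits were repeated without KO total library 1, and the calls of the members in IP against total RNA were then the same. The part of the other marker differences in the results was not tested.

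To compare the genes with each other, CPM was divided by the length of a gene's merged exons (CPM per kb). Sgca was the most abundant of the 8 in WT total RNA, at 127 ± 23.6 CPM per kb (SD, n = 3), which placed it 255th of 22023 genes with a count. Sgcb followed at 53.4 ± 7.66 and Dag1 at 45.9 ± 8.52 CPM per kb, and the ranges of these neighbours overlapped. Dtna stood at 6.53 ± 0.697, Dmd at 4.62 ± 0.869, Lama2 at 3.53 ± 0.421 and Utrn at 2.60 ± 0.600 CPM per kb. Dmd and Lama2 overlapped, as did Lama2 and Utrn, whereas Dtna lay above Dmd in every library. Sgcd, at 0.948 ± 0.0725 CPM per kb, was the lowest and sat at the 50.1st percentile of all genes with a count. Within the sarcoglycan subcomplex, therefore, the transcript level per kb ranged from among the highest of the muscle (Sgca) to the middle of all genes (Sgcd). Dividing by the longest annotated transcript gave the same order, with Dtna at 17.6 and Dmd at 7.37 CPM per kb. The order in KO total RNA differed in that Dag1 (57.4 ± 1.69 CPM per kb) lay above Sgcb (47.7 ± 4.77), without overlap.

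Dmd (ENSMUSG00000045103, GRCm38 chromosome X, 82948870 to 85206141, plus strand) has 23.8 kb of merged exons in 14 annotated transcripts. In total RNA it stood at 89.4, 109 and 131 CPM in WT libraries 1 to 3 and at 120.3, 111 and 89.1 CPM in KO libraries 1 to 3. In the IP it stood at 45.8 and 50.6 CPM in WT and 55.7 and 38.3 CPM in KO. The total RNA groups spanned the same range, and all 4 IP libraries lay below all 6 total RNA libraries.

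Utrn (ENSMUSG00000019820, chromosome 10, 12382188 to 12869365, minus strand), which can take the place of dystrophin at the membrane when dystrophin is missing, stood at 35.9, 41.5 and 55.8 CPM in WT total RNA. The KO total RNA libraries had 40.1, 49.8 and 39.0 CPM, all inside the WT range. In the IP it stood at 30.2 and 35.0 CPM in WT and 37.4 and 42.7 CPM in KO, so the KO IP lay above the WT IP and among the total RNA values.

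Dtna (ENSMUSG00000024302, chromosome 18, 23415135 to 23659715, plus strand) stood at 105, 102 and 124 CPM in WT total RNA and at 114, 106 and 102 CPM in KO. In the IP it fell to 23.9 and 24.1 CPM in WT and to 30.7 and 18.9 CPM in KO, the largest fold difference between IP and total RNA of the 8 genes in both genotypes. Its group mean was 111 ± 11.8 CPM in WT total RNA (SD, n = 3) and 24.0 ± 0.133 CPM in the WT IP (SD, n = 2). The WT IP values rest on 57 and 62 counts, with exact Poisson intervals of 43.2 to 73.9 and 47.5 to 79.5 counts at 95%. The SD of these 2 libraries is thus smaller than their counting error and does not measure their precision. An annotated antisense gene, Gm47898, covers 90 exonic bases of Dtna, and its reads may not be separated.

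Dag1 (ENSMUSG00000039952, chromosome 9, 108204634 to 108263958, minus strand) stood at 307, 337 and 232 CPM in WT total RNA and at 376, 363 and 355 CPM in KO. With TMM factors all KO libraries lay above all WT libraries, and WT library 3 was the lowest. In the IP the order was the opposite, with 199 and 273 CPM in WT above 143 and 156 CPM in KO. On this scale Dag1 was thus the gene of the 8 whose KO libraries were highest in total RNA and lowest in the IP. By library size alone KO total library 3 (282 CPM) lay below WT total libraries 1 and 2 (290 and 314 CPM).

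Sgca (ENSMUSG00000001508, chromosome 11, 94962791 to 94976327, minus strand), α-sarcoglycan, is largely restricted to striated muscle. It stood at 257, 229 and 176 CPM in WT total RNA and at 264, 228 and 318 CPM in KO, and the groups overlapped. The IP libraries had 305 and 387 CPM in WT and 311 and 271 CPM in KO. It was the gene of the 8 whose WT IP libraries both lay above every WT total RNA library.

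Sgcb (ENSMUSG00000029156, chromosome 5, 73632749 to 73647790, minus strand), β-sarcoglycan, stood at 208, 190.4 and 251 CPM in WT total RNA and 207, 202 and 171 CPM in KO. In the IP it stood at 145 and 213 CPM in WT and at 129 and 135 CPM in KO. With TMM factors both KO IP libraries lay below every other library. By library size alone KO total library 3 (136 CPM) lay below both (146 and 162 CPM). Sgcd (ENSMUSG00000020354, chromosome 11, 46896253 to 47988969, minus strand), δ-sarcoglycan, stood at 8.44, 7.79 and 7.25 CPM in WT total RNA and 8.16, 7.41 and 9.74 CPM in KO. Its IP values of 5.46 and 10.1 CPM in WT and 5.76 and 3.73 CPM in KO rest on 13, 26, 6 and 18 counts. The 6 counts of KO IP library 1 have an exact Poisson interval of 2.20 to 13.1 counts at 95%, which covers counting error only, so the IP values of Sgcd were the least precise of the 8 genes.

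Lama2 (ENSMUSG00000019899, chromosome 10, 26980036 to 27619758, minus strand) was the member on the outside of the fibre. It stood at 49.9, 62.9 and 60.4 CPM in WT total RNA and at 63.7, 64.3 and 77.1 CPM in KO. With TMM factors the lowest KO library was just above the highest WT library. By library size alone WT library 3 (70.5 CPM) was the highest of the total RNA libraries. In the IP Lama2 stood at 29.8 and 21.8 CPM in WT and 37.4 and 30.0 CPM in KO, below every total RNA library. The antisense gene Gm48084 covers 631 of its exonic bases (3.86%), and its reads may not be separated from those of Lama2.

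**Figure D1:**
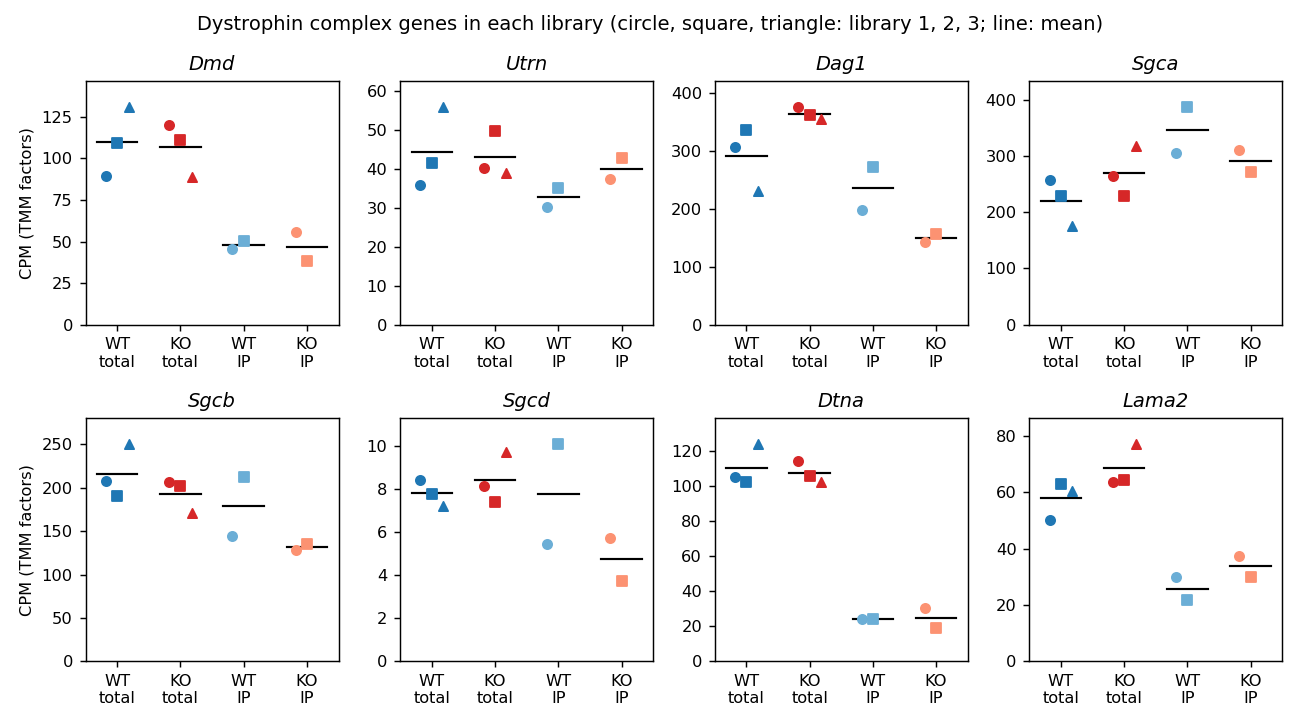
Level of each of the 8 genes (CPM with TMM factors, axis from 0) in the 10 libraries, with circles, squares and triangles for libraries 1, 2 and 3 and a line at each group mean (n = 3 for total RNA, n = 2 for IP). Dmd, Dtna and Lama2 lay lower in all 4 IP libraries than in all 6 total RNA libraries, and Dag1 lay highest in KO total RNA and lowest in the KO IP.

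No member passed the threshold between KO and WT in total RNA. Of the 8 genes, 0 passed edgeR's quasi-likelihood test of KO against WT (an adjusted p under 0.05), 0 had an unadjusted p under 0.05, and 0 passed with DESeq2. Of all 13169 genes tested, 0.00% passed as well (0 genes), while 569 (4.32%) had an unadjusted p under 0.05 and 5 passed with DESeq2. The median log2 difference of the 8 genes was 0.03 against -0.01 over all genes tested, with 4 genes higher and 4 lower in KO. In bulk tissue, fewer cells of a type and less RNA per cell cannot be told apart.

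On the cytoplasmic side, Dmd differed by -0.05 ± 0.19 on the log2 scale (SE, KO minus WT, 3 against 3 libraries, 95% interval -0.47 to 0.37). The interval spans 0.720-fold to 1.29-fold of the WT level, and changes of the dystrophin transcript within these bounds are compatible with the data. It is not a limit of detection. Utrn differed by -0.06 ± 0.20 (-0.50 to 0.39) and Dtna by -0.05 ± 0.15 (-0.38 to 0.28). Without WT library 3, where they were highest, these 3 estimates turned positive, at 0.11 for Dmd, 0.16 for Utrn and 0.05 for Dtna. For Dag1 the estimate was 0.32 ± 0.17 (-0.08 to 0.71), or 1.24-fold higher in KO, with an unadjusted p of 0.103 and an adjusted p of 0.897 by the same edgeR test. Sgca had an estimate of 0.29 ± 0.19 (-0.15 to 0.73), Sgcb of -0.17 ± 0.17 (-0.55 to 0.21) and Sgcd of 0.10 ± 0.19 (-0.33 to 0.53). The intervals of all 3 sarcoglycans included 0. The Sgcd estimate was -0.12 when libraries were scaled by library size alone, a scaling that moved the median of all genes to -0.23. Lama2 differed by 0.24 ± 0.16 (-0.12 to 0.60).

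With TMM factors the KO and WT libraries did not overlap for Dag1 and Lama2, both higher in KO. That is 2 of 8 genes, where 9.63% of all genes tested did not overlap (5.06% higher in KO). By library size alone the libraries of both genes overlapped, and the estimates were 0.12 for Dag1 and 0.0062 for Lama2. The summed muscle fibre markers were also higher in every KO than in every WT total RNA library, and were lowest in WT library 3, where Dag1 and Sgca were lowest. The part of this in the Dag1, Sgca and Lama2 values was not tested.

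Across the 6 total RNA libraries the 8 genes did not move as a block. When each was centred on its own mean, Dmd, Utrn, Sgcb and Dtna were highest in WT library 3, by 0.29, 0.37, 0.30 and 0.19 on the log2 scale. In that library Dag1 and Sgca were at their lowest, by -0.48 and -0.46. KO library 3 showed the reverse for several genes, with Sgca at 0.40, Lama2 at 0.30 and Sgcd at 0.26 above their means and Dmd and Sgcb at -0.27 and -0.25. TMM factors of these libraries were the most extreme among total RNA, at 1.17 for WT library 3 and 0.794 for KO library 3. The part of this scaling in the profiles was not tested.

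**Figure D2:**
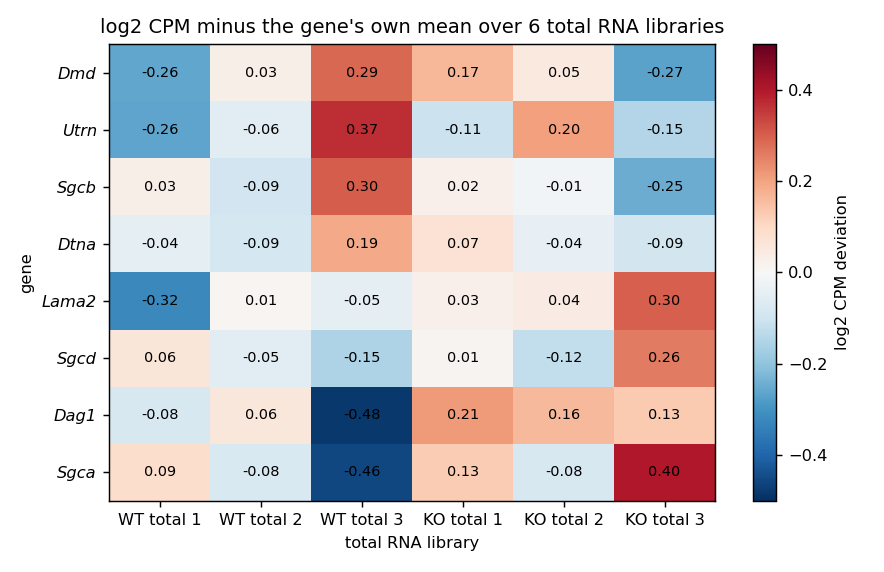
Deviation of each gene (rows) from its own mean log2 CPM in the 6 total RNA libraries (columns), with red for above and blue for below the mean. WT library 3 held the highest values of Dmd, Utrn, Sgcb and Dtna and the lowest of Dag1 and Sgca (-0.48 and -0.46).

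The profile of Dmd was most like those of Cep131, Tjap1 and Limch1 among 8141 genes with a mean of at least 10 CPM. The root mean square distances over the 6 libraries were 0.031, 0.036 and 0.039 on the log2 scale, where the spread of Dmd itself was 0.205 and the median gene lay 0.287 away. Among the members, Dtna (0.140), Sgcb (0.144) and Utrn (0.145) ranked 497th, 538th and 573rd nearest to Dmd. Lama2 (0.276), Dag1 (0.365) and Sgca (0.437) ranked 3797th, 5780th and 6831st. For Sgca the nearest genes were Csnk2b, Snx21 and Bop1, at 0.022, 0.030 and 0.036, and the nearest member was Dag1, at 0.176. For Lama2 they were Cyb5r1, Dapk2 and Lrrc8c, at 0.055, 0.068 and 0.076. All of these profiles share the same 6 libraries and their scaling, and Sgcd was below 10 CPM and was not ranked.

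Ratios between members within a library do not depend on how libraries are scaled. There were 0.402, 0.379 and 0.427 Utrn counts per Dmd count in the WT libraries of total RNA and 0.333, 0.449 and 0.437 in those of KO, so KO covered a wider range around the same centre. The mean log2 ratio differed by 0.00 (exact permutation test, two-sided, p = 1, adjusted p = 1 over 4 ratios, n = 3 per group). Sgcb had 0.809, 0.832 and 1.42 counts per Sgca count in WT and 0.785, 0.884 and 0.537 in KO. The difference was -0.45 on the log2 scale (exact permutation p = 0.4, adjusted p = 0.533). Sgcd had 0.0329, 0.0340 and 0.0412 counts per Sgca count in WT and 0.0310, 0.0325 and 0.0306 in KO. Each of the WT libraries lay above each of the KO libraries, and the difference of -0.19 had an exact permutation p of 0.1 (adjusted p = 0.4), the smallest that 3 against 3 libraries can give. Lama2 had 0.558, 0.575 and 0.462 counts per Dmd count in WT and 0.530, 0.580 and 0.866 in KO, a difference of 0.28 (exact permutation p = 0.4, adjusted p = 0.533).

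None of the 8 transcripts passed the test of recovery by the antibody above its background, WT IP against KO IP. By edgeR's quasi-likelihood test 0 of 8 passed, 1 (Dag1) had an unadjusted p under 0.05, and 0 passed with DESeq2. DESeq2 gave no adjusted p for at least Dmd and Utrn, which therefore could not pass there. Of 10730 genes tested, 0.00% passed (0 genes), 1128 (10.5%) had an unadjusted p under 0.05, and 57 passed with DESeq2. The median log2 difference of the 8 genes was 0.16 against -0.01 over all genes tested.

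Dag1 was 1.56-fold higher in the WT than in the KO IP, a log2 difference of 0.64 ± 0.23 (SE, WT minus KO, 95% interval 0.15 to 1.13) with an unadjusted p of 0.0139 and an adjusted p of 0.332. Sgcb was 0.43 ± 0.24 higher (-0.08 to 0.94), Sgca 0.24 ± 0.22 (-0.23 to 0.72) and Sgcd 0.80 ± 0.68 (-0.64 to 2.24), the widest interval of the 8. On the cytoplasmic side, Dmd stood at 0.07 ± 0.28 (-0.52 to 0.67), Dtna at 0.02 ± 0.35 (-0.73 to 0.77) and Utrn at -0.32 ± 0.28 (-0.92 to 0.28). The estimates of Dmd and Dtna were below 0, at -0.07 and -0.12, with library size alone. Lama2 stood at -0.37 ± 0.32 (-1.05 to 0.31), so its KO IP values were the higher ones. Single libraries moved these estimates: leaving out each in turn gave 0.40 to 0.85 for Dag1 (adjusted p of 0.168 to 0.992), 0.13 to 0.68 for Sgcb, 0.07 to 0.40 for Sgca, 0.30 to 1.19 for Sgcd, -0.42 to -0.22 for Utrn and -0.61 to -0.15 for Lama2. The estimates of Dag1, the sarcoglycans and Lama2 were nearest to 0 without WT IP library 2 and farthest from 0 without WT IP library 1. With 2 libraries against 2 and TMM factors, Dag1 and Sgcb lay wholly higher and Utrn and Lama2 wholly lower in WT. That is 4 of 8 genes, where 41.1% of all genes tested did not overlap. That share is close to the background and says nothing particular about the complex. By library size alone Sgcb overlapped, with 159 CPM in WT IP library 1 and 162 CPM in KO IP library 2.

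Members passed the test where IP was compared with total RNA of the same genotype. In WT, 4 of the 8 genes passed edgeR's quasi-likelihood test, 3 lower in the IP (Dmd, Dtna and Lama2) and 1 higher (Sgca). Of all 14399 genes tested, 37.0% passed, 17.6% higher and 19.4% lower. In KO, 4 of the 8 genes passed, all lower in the IP (Dmd, Dtna, Lama2 and Dag1), where 36.5% of all genes passed, 17.7% higher and 18.8% lower. Both contrasts come from 1 fit of all 10 libraries with a shared estimate of the spread. The median log2 difference of the 8 genes was -0.38 in WT and -1.01 in KO, against -0.05 and 0.03 over all genes tested.

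Dtna had the largest difference of the 8, at -2.20 ± 0.23 in WT (SE, log2, IP minus total RNA, adjusted p = 1.85e-05) and -2.20 ± 0.24 in KO (adjusted p = 2.85e-05) by edgeR. It was 4.60-fold lower in the WT IP and 4.61-fold lower in the KO IP than in total RNA, and ranked 111th and 110th by p among 14399 genes. Dmd was 2.28-fold lower in the WT IP (-1.19 ± 0.24, adjusted p = 0.00157) and 2.34-fold lower in the KO IP (-1.23 ± 0.24, adjusted p = 0.00158). Both proteins bind each other inside the fibre, and their transcripts were lower in the IP in both genotypes. Lama2 was 2.24-fold lower in WT (-1.16 ± 0.22, adjusted p = 0.00114) and 2.07-fold lower in KO (-1.05 ± 0.22, adjusted p = 0.00240). Without KO IP library 2 the KO values of Dmd (-0.95, adjusted p = 0.0611) and Lama2 (-0.88, adjusted p = 0.0709) no longer passed, and with library size alone Lama2 did not pass in KO (-0.61, adjusted p = 0.0632). Over all alternatives the KO adjusted p ranged from 1.32e-05 to 0.0611 for Dmd and from 4.53e-05 to 0.0709 for Lama2, and the WT calls of Dmd, Dtna and Lama2 held in every alternative (adjusted p of at most 0.0220, 8.17e-04 and 0.0172). These 3 of 8 genes passed in the same direction in both genotypes, where 13.4% of all genes tested were lower in both.

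Utrn, unlike Dmd, did not pass in either genotype. It had a log2 difference of -0.44 ± 0.23 in WT (95% interval -0.94 to 0.05, adjusted p = 0.148) and -0.08 ± 0.23 in KO (-0.58 to 0.41, adjusted p = 0.805, and 0.34 with library size alone) by edgeR. Utrn counts per Dmd count were accordingly 0.661 and 0.692 in the WT IP and 0.672 and 1.11 in the KO IP, all above the 0.333 to 0.449 of the total RNA libraries; this difference was not tested.

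Among the membrane proteins, Sgca was 1.57-fold higher in the WT IP than in WT total RNA (0.65 ± 0.22, adjusted p = 0.0339) and stood at 0.11 ± 0.23 in KO (adjusted p = 0.745). Among the fits that left out libraries, the WT call was lost without WT IP library 2 (0.39, adjusted p = 0.340), without WT total library 3 (0.51, adjusted p = 0.0791), without WT total library 2 (0.68, adjusted p = 0.0574) and without both KO total library 1 and WT total library 2 (0.69, adjusted p = 0.0724). Over all alternatives its adjusted p ranged from 0.00616 to 0.340, and the further losses are given under the dependence on processing. In KO, Sgca passed when libraries were scaled by library size alone (0.55, adjusted p = 0.0250), a scaling that moved the median of all genes in that contrast to 0.47 and the split of calls from 2551 higher and 2700 lower to 4267 higher and 1439 lower. Dag1 stood at -0.31 ± 0.22 in WT (adjusted p = 0.282) and was 2.43-fold lower in the KO IP (-1.28 ± 0.23, adjusted p = 6.79e-04, at most 0.0140 over all alternatives). Dag1 thus passed in KO and not in WT, and the test of that difference is given further on. Sgcb stood at -0.27 ± 0.22 in WT and -0.55 ± 0.22 in KO (adjusted p = 0.336 and 0.0654, and 0.0270 in KO with DESeq2, in a range of 0.0225 to 0.715), and Sgcd at 0.00 ± 0.33 and -0.97 ± 0.38 (adjusted p = 0.998 and 0.0599, the latter in a range of 0.0215 to 0.530). The KO value of Sgcd passed without WT IP library 1 (-0.99, adjusted p = 0.0338) and without WT IP library 2 (-1.10, adjusted p = 0.0215), and was -0.56 without KO IP library 2. Without WT IP library 2 the WT estimate of Sgcd was -0.60.

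The libraries of IP and total RNA did not overlap for 5 of the 8 genes in WT and for 6 in KO, beside 59.9% and 61.3% of all genes. The per-kb order changed with it: by merged exons, Dtna was 4th in both total RNA groups and 7th in both IP groups, at 1.42 ± 0.00784 CPM per kb in WT and 1.46 ± 0.495 in KO (SD, n = 2 each). This move rests on the length used. By the longest transcript Dtna was 4th in both IP groups too, at 3.82 ± 0.0211 CPM per kb in WT and 3.94 ± 1.33 in KO. The WT SDs are smaller than the counting error of 57 and 62 counts.

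**Figure D3:**
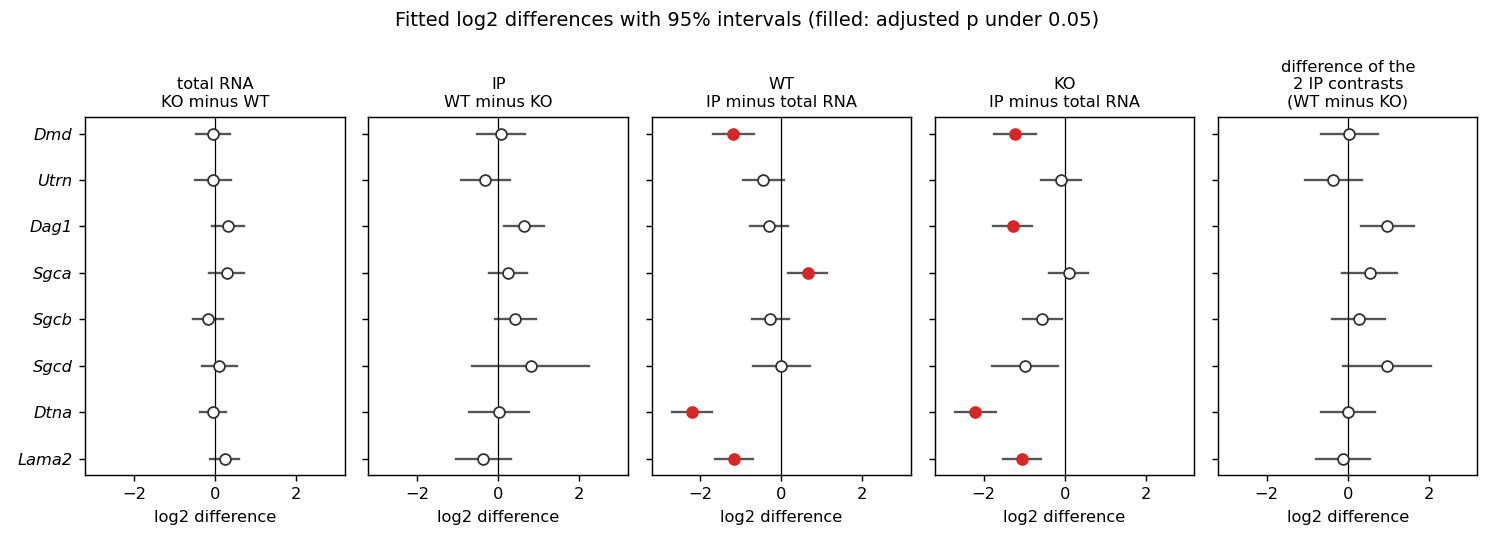
Fitted log2 differences of the 8 genes in the 5 comparisons, with 95% intervals; filled points had an adjusted p under 0.05 in edgeR's quasi-likelihood test over all genes. Filled points appear in the contrasts of IP with total RNA alone, at -2.20 in both genotypes for Dtna.

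Longer genes were on the whole lower in the IP libraries. Across 14331 genes with a length, which are not independent replicates, Spearman's rho between merged exon length and the log2 difference of IP minus total RNA was -0.24 in WT and -0.16 in KO. The median log2 difference was 0.45 in WT and 0.29 in KO for genes under 2 kb, and -0.50 and -0.33 for the 1304 genes of 10 kb or more. By merged exons, Dmd (23.8 kb), Utrn (17.1 kb), Dtna (16.9 kb) and Lama2 (16.3 kb) belong to that longest class, and Sgca (1.74 kb) to the shortest. Dmd, Dtna and Lama2 lay below the median of their class in both genotypes, whereas Utrn was at -0.44 and -0.08, above it. The class depends on the length used. By the longest transcript, Dtna (6.3 kb) and Lama2 (9.61 kb) fall in the class just below 10 kb. Its median was -0.42 in WT and -0.30 in KO, and both genes lay below it too. The part of length in the members' values was not tested.

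**Figure D4:**
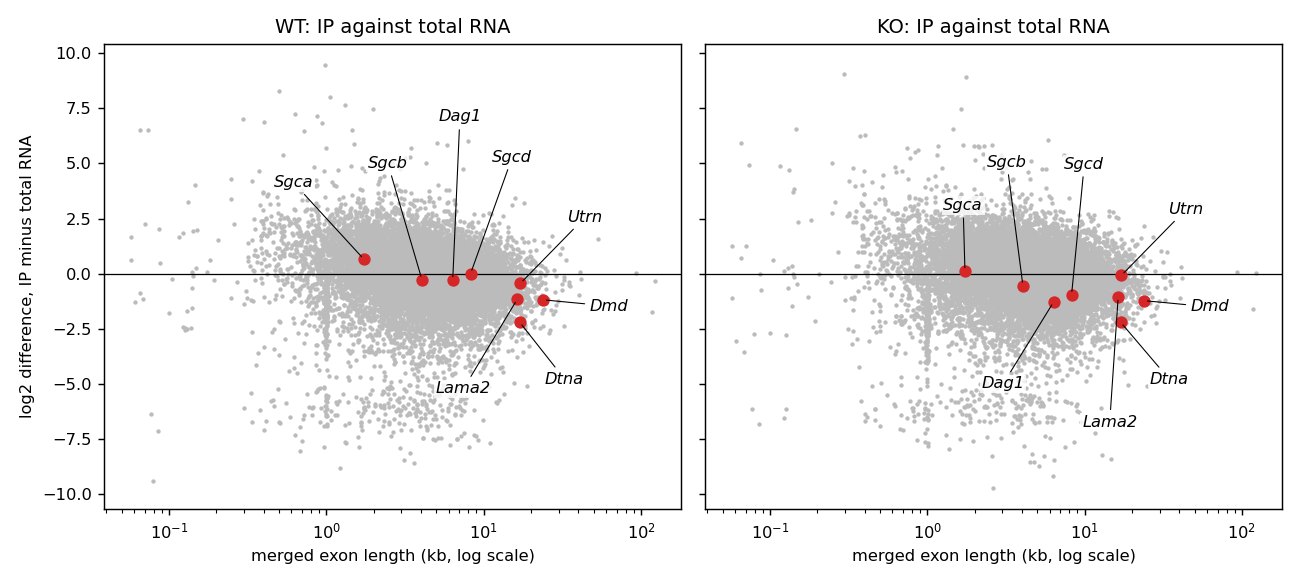
Log2 difference of IP minus total RNA (vertical axis) against merged exon length in kb (horizontal, log scale) for all tested genes (grey) and the 8 complex genes (red), in WT and KO. Dmd, Dtna and Lama2 lie low among the longest genes and Sgca is the shortest of the 8, at 1.74 kb.

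Whether a member's recovery over total RNA differed between genotypes was tested as the difference of both contrasts (WT minus KO). Of the 8 genes 0 passed edgeR's quasi-likelihood test, 1 (Dag1) had an unadjusted p under 0.05, and 0 passed with DESeq2. Of 14399 genes, 0.00694% passed (1 gene, Prps1l3, named after its value was seen) and 11.8% had an unadjusted p under 0.05. Dag1 had the largest difference of the 8, at 0.97 ± 0.31 (SE, log2, 95% interval 0.32 to 1.63, unadjusted p = 0.00668, adjusted p = 0.342). It uses the same libraries as the genotype contrasts and is not independent of them, and over its alternatives the adjusted p lay between 0.126 and 0.626. Sgcd stood at 0.97 ± 0.51 (-0.11 to 2.06) and Sgca at 0.54 ± 0.32 (-0.14 to 1.23), and neither passed (adjusted p = 0.460 and 0.512). For Dmd the difference was 0.04 ± 0.33 (-0.67 to 0.75), for Dtna 0.00 ± 0.31 (-0.66 to 0.67) and for Lama2 -0.11 ± 0.31 (-0.77 to 0.55). The lower level of Dmd, Dtna and Lama2 in the IP was thus measured in both genotypes, with genotype differences bounded by these intervals. Sgcb stood at 0.27 ± 0.31 (-0.38 to 0.93), or -0.12 with library size alone, and Utrn at -0.36 ± 0.33 (-1.06 to 0.34).

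Other components of the complex, a list of 19 genes with the syntrophins, further sarcoglycans, Nos1, Cav3 and intermediate filament genes, had 16 tested in total RNA, of which 0 passed in edgeR's test of KO against WT. The median of the list was 0.07, with 9 genes higher and 7 lower. The smallest p belonged to Ank2, an ankyrin (-0.45 ± 0.17), Plec, the cytolinker plectin (0.39 ± 0.24), and Cav3, the muscle caveolin (0.34 ± 0.21). In the contrast of WT IP with KO IP, 0 of 14 passed, and Cav3 (0.99 ± 0.25, adjusted p = 0.209) and Des, the intermediate filament desmin (0.90 ± 0.24, adjusted p = 0.230), had the smallest p. For this and the following lists, counts of IP against total RNA stand beside 17.6% higher and 19.4% lower over all genes in WT, and 17.7% and 18.8% in KO. Of the 16 genes tested in WT, 3 were higher and 7 lower in the IP than in total RNA, with a median of -0.51 against -0.05 over all genes. Cav3 was higher in WT (1.32 ± 0.25) and Nos1, the neuronal nitric oxide synthase bound to the complex, was lower in both genotypes (-1.71 ± 0.32 in WT, -2.27 ± 0.34 in KO). In KO 0 were higher and 6 lower, among them Plec (-1.68 ± 0.28) and Synm, the filament protein synemin (-1.24 ± 0.25). Actg1 (-3.13 ± 0.45 in WT) rests on 4 and 4 counts in the WT IP. It has near-identical actin copies, and reads that align to several places were given to no gene, so its value is uncertain.

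The enzymes that build the laminin-binding sugar of dystroglycan had 19 of 20 genes tested in total RNA, and 0 passed, with 13 higher and 6 lower in KO and a median of 0.14. Gmppb, which makes GDP-mannose (0.47 ± 0.20), and B3galnt2 (-0.56 ± 0.29) and B4gat1 (0.28 ± 0.17), which add sugars to the chain, had the smallest p. In the contrast of WT IP with KO IP, 0 of 17 passed. Against total RNA, 2 were higher and 3 lower in the WT IP, and 3 higher and 4 lower in the KO IP, of 19 tested, which is near or below those shares. Dpm2, a subunit of dolichol-phosphate-mannose synthase, was higher (1.08 ± 0.23 in WT, 1.82 ± 0.23 in KO).

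Basement membrane genes other than Lama2 had 19 of 21 genes tested in total RNA. Of these 0 passed, 7 had an unadjusted p under 0.05 (4.32% of all genes did), and 14 were higher and 5 lower in KO, with a median of 0.40 against -0.01 over all genes. Summed markers of smooth muscle and pericytes were also higher in every KO than in every WT total RNA library (874 to 1232 against 696.5 to 833 CPM, 10 genes). So were those of satellite cells (89.9 to 119.7 against 75.4 to 80.1 CPM, 8 genes). Both separations hold with TMM factors (0.931 to 1.17 in WT, 0.794 to 0.947 in KO), and both sets overlap by library size alone. Endothelial markers overlapped, at 931 to 1274 CPM in KO and 820 to 1052 CPM in WT (12 genes). Their part was not tested. The smallest p belonged to Nid2, the linker nidogen 2 (0.87 ± 0.26), Col4a2, a chain of collagen IV (0.78 ± 0.27), and Lamb1, the laminin β1 chain (0.62 ± 0.22), each with an adjusted p of 0.897 by edgeR. Lama2, at 0.24, lay below the median of these genes. In the contrast of WT IP with KO IP, 0 of 17 passed, 2 were higher and 15 lower in WT, and the median was -0.34. Col6a1 (-0.63 ± 0.23) and Col6a2 (-0.62 ± 0.24), chains of collagen VI, and Agrn, which encodes agrin (-0.66 ± 0.25), had the smallest p. The summed fibroblast markers, which include other collagens, were likewise lower in both WT than in both KO IP libraries. So were the endothelial markers (1305 and 1316 against 1444 and 2191 CPM) and the Schwann cell markers (268 and 410.3 against 462 and 468 CPM, 10 genes, 1 of them at 0 in the WT IP), and the part of these markers was not tested. Against total RNA, 6 of the 19 genes were higher and 4 lower in the WT IP, and 5 higher and 3 lower in the KO IP. Col6a1 was higher by 1.90 ± 0.25 in WT and 2.03 ± 0.25 in KO, and Bgn, the proteoglycan biglycan, by 2.44 ± 0.33 and 2.15 ± 0.33, while Lama2 was lower in both.

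The integrin linkage, the other connection of the fibre to laminin, had 18 of 19 genes tested in total RNA, with 0 passed, 13 higher and 5 lower in KO and a median of 0.15. Itga5, an integrin α chain (0.36 ± 0.18), Parva, a parvin (0.37 ± 0.19), and Vcl, which encodes vinculin (-0.32 ± 0.17), had the smallest p. In the contrast of WT IP with KO IP, 0 of 18 passed. Against total RNA, 3 were higher and 4 lower in the WT IP, and 2 higher and 4 lower in the KO IP, of 18 tested, likewise near those shares. Vcl differed by -4.44 ± 0.41 in WT and -3.72 ± 0.41 in KO, a larger difference than that of any of the 8 complex genes. Its IP values rest on 8 and 11 counts in WT and on 12 and 14 counts in KO. Lims2, a PINCH adaptor of focal adhesions, was higher (1.11 ± 0.23 and 1.57 ± 0.23). In the difference of both contrasts 0 genes of these 4 lists passed, Cav3 having the smallest p of the other complex components (1.34 ± 0.36, adjusted p = 0.342).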

How the data were processed

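Reads were processed with STAR and HTSeq on mm10 (GRCm38), per the submitters' processing notes; the sources used here name no version, annotation release or strand setting. The values are whole-number counts of reads per Ensembl gene, as deposited by the authors, with no scaling. Symbols, coordinates and exon lengths came from GENCODE M21 (GRCm38), in which 42462 of 43629 genes had a match, and promoter windows came from RefSeq (7 of 8 members). Lines for reads given to no gene, 41.2% to 58.7% of a library's reads, were left out. Low genes were removed by filterByExpr, libraries scaled by TMM, and differences tested with edgeR 4.0.16 in R 4.3.3 (quasi-likelihood F test, two-sided, Benjamini-Hochberg adjustment over all genes tested, threshold 0.05). KO was compared with WT in 6 total RNA libraries and WT with KO in 4 IP libraries, and the contrasts of IP with total RNA and their difference came from 1 model of all 10 libraries. Standard errors were derived from the F statistic. A count of 3 was taken as the floor, 0.203 to 3.27 CPM by library size. The fits were also run on simulated counts with known differences, a check of the code and not of these libraries. Alternatives were library size alone, RLE factors, DESeq2 1.42.0, no filter, a replicate block and libraries left out. Members, lists and tests were chosen with earlier results of these data known. Of each list, up to 3 genes with the smallest p per comparison could be named, and for Dmd, Sgca and Lama2 the 3 nearest profiles. No protein sequences were used here. A gene of the glycosylation list that this rule would name is not reported here.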

Additional observations from a re-analysis of the deposited data

How the results depend on the processing

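No member was called in total RNA, in the IP or in the difference of contrasts under any alternative. In the IP with DESeq2, at least Dmd and Utrn had no adjusted p and could not be called. The calls of Dmd, Dtna and Lama2 in WT and of Dtna and Dag1 in KO held in each alternative run. Called genes in total RNA rose from 0 to 5 with DESeq2 and 64 without a filter, and in the IP from 0 to 57 with DESeq2, 103 without a filter and 1 with library size alone (Neat1). In the difference of contrasts 1 gene became 17 with DESeq2, 263 without a filter and 0 with library size alone or without KO total library 1 and WT total library 2, which stood apart by islet and adipocyte markers. The causes were not tested.

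With library size alone the estimate turned to -0.12 for Sgcd in total RNA, to -0.069 for Dmd and -0.12 for Dtna in the IP, to 0.34 for Utrn in the KO contrast, and to -0.35 for Dmd, -0.12 for Sgcb and -0.39 for Dtna in the difference of contrasts. Without a filter Sgcd in WT was -0.046 and Dtna in the difference of contrasts -0.0095. Without both libraries named above, the differences of contrasts were -0.060 for Dmd, -0.10 for Dtna and 0.0012 for Lama2, and Sgca in WT had an adjusted p of 0.0724 (0.69) by edgeR.

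Leaving out single libraries gave ranges in total RNA of -0.18 to 0.11 for Dmd, -0.19 to 0.16 for Utrn, -0.0029 to 0.19 for Sgcd and -0.092 to 0.053 for Dtna. In the IP they were 13 to 146 genes called, -0.23 to 0.33 for Dmd and -0.37 to 0.35 for Dtna. For WT the range was -0.60 to 0.35 for Sgcd, and for KO 2148 to 5706 genes and 2 to 6 members called, -0.21 to 0.035 for Utrn and -0.015 to 0.24 for Sgca, the lowest counts without KO IP library 2. In the difference of contrasts they were 0 to 1 genes, -0.25 to 0.28 for Dmd, -0.40 to 0.30 for Dtna and -0.36 to 0.14 for Lama2. The log2 ratio of Utrn to Dmd ranged from -0.074 to 0.14. Where 1 IP library was left, it was assumed to vary like the other groups.

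Replicate numbers are shared between groups. Same-numbered libraries deviated with correlations of -0.33 to 0.10 between total RNA groups and -0.05 between IP groups, but of 0.11 to 0.12 between total RNA and IP in WT and 0.13 to 0.15 in KO. With 2 IP libraries per genotype, the value of a total RNA library with the other IP library is the same with its sign turned. With 2 such pairs per genotype and no label that ties the numbers to animals, this is a hint of pairing from the data only. Between the total RNA groups, 1 of 6 libraries correlated best with its own number. That count does not bear on a pairing of total RNA with IP. The replicate block gave same-numbered libraries of all groups in a fit a shared term, across both genotypes. It is thus not a pairing of total RNA with IP within a genotype. With this block, 28 genes were called in the IP and 0 in the difference of contrasts, where Dtna was -0.0037. Sgca in WT then did not pass (0.65, adjusted p = 0.0684 by edgeR). The IP depth of 917462 counts in KO library 1 limits Sgcd most.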
